A study of Mus musculus with 37 samples.

Results

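The anaphase-promoting complex or cyclosome (APC/C) and the spindle checkpoint were followed through 10 of their regulators in single mouse oocytes. The genes were chosen by name for their roles: the activators Cdc20 and Fzr1 (Cdh1), the inhibitors Fbxo5 (Emi1) and Fbxo43 (Emi2), securin (Pttg1) and separase (Espl1), and the checkpoint genes Mad2l1, Bub1, Bub1b and Bub3. They are 10 of the 54752 genes and 53 of the 138835 transcripts in the deposited tables, and each was found by its symbol.

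The APC/C is a ubiquitin ligase that marks cyclin B and securin for destruction. It works only with an activator bound, and it is held back by Emi1 and Emi2 and by the spindle checkpoint, which keeps Cdc20 in a complex of Mad2, BubR1 and Bub3 while kinetochores lack microtubules. In oocytes Cdh1 and Emi1 act during the prophase arrest, loss of securin frees separase at anaphase I, and Emi2 holds the egg at metaphase II until fertilisation.

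The study sequenced RNA from 37 single oocytes of C57BL/6 females aged 6 to 8 weeks, and asked how gene and transcript levels differ between meiotic stages. Germinal vesicle (GV) oocytes were collected 48 h after pregnant mare serum gonadotropin (PMSG), a hormone that makes follicles grow. Metaphase I (MI) oocytes had spent 8 h in culture in M16 medium. Metaphase II (MII) oocytes came from the oviduct ampulla 15 h after human chorionic gonadotropin (hCG), which triggers ovulation. The zona pellucida and polar body were removed, and cDNA was made by the Smart-seq2 method, which primes from the poly(A) tail and covers full-length transcripts. Batch A held 6 GV and 6 MII oocytes, and batch B held 10 GV and 15 MI oocytes, so MI and MII were never in one batch and each was compared with the GV oocytes of its own batch. Each replicate is 1 oocyte and the labels do not name the animals, so p-values measure the spread between these oocytes only.

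Expected counts summed over genes ranged from 7509875 to 13988444 per oocyte in batch A and from 2709280 to 19390128 in batch B. All 12 oocyte markers (such as Zp3 and Gdf9) had counts in every group, with a median summed level of 12137 TPM (transcript counts scaled for length and library size) in GV and 6552 TPM in MII oocytes of batch A, and of 4050 TPM in GV and 3669 TPM in MI oocytes of batch B. Of the 16 cumulus and granulosa markers, 13 in GV and 16 in MII oocytes of batch A and 11 in each group of batch B had counts, and their summed TPM was 14.6 to 43.1 in any oocyte. Their most abundant gene was Cyp19a1, with a median of 13.7 TPM in GV and 12.3 TPM in MII oocytes of batch A and 12.3 TPM in GV oocytes of batch B, or Nr5a2 in MI oocytes (9.46 TPM), while Ptx3, Gatm and Amhr2 were at 0 in GV and MI oocytes of both batches, and Amh and Foxl2 in batch B. Some scarcer markers had a lower mean at the later stage. In batch A Inha was at 1.22 TPM in GV and 0.075 TPM in MII oocytes, and Fshr at 0.94 and 0.012 TPM. In batch B Inhba was at 1.10 TPM in GV and 0.076 TPM in MI oocytes, and Gja1 at 1.88 and 0.21 TPM. Of the 5 cumulus and granulosa markers tested in batch B, 1 was called lower (0.0322% of all genes) and 3 had a positive log2 fold change, up to 1.21. In batch A 0 of 3 tested were called, against 8.47% of all genes. There 2 were positive, Cyp19a1 (0.12) and Nr5a2 (0.10), and Kitl was negative (-0.52). The 10 blood and immune markers summed to at most 4.24 TPM in GV oocytes of batch A, 29.2 TPM in GV and 24.6 TPM in MI oocytes of batch B, with Lyz2 and Tyrobp at 0 in each of these groups. The median sum was 15.6 TPM in GV and 8.75 TPM in MI oocytes of batch B, and 1.42 TPM in GV oocytes of batch A. In batch B the haemoglobin gene Hbb-bs was the most abundant, with a mean of 8.28 TPM in GV and 5.60 TPM in MI oocytes. Hbb-bt had 5.55 TPM and 3.26 TPM there. Batch A carried ERCC spike-in RNA, with 44663 to 143062 counts per oocyte, while batch B had 0 to 32 such counts and cannot be scaled by them.

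Some libraries stood apart. MII oocyte 1 of batch A had 29518 genes with a count, against 19273 to 22244 in the other MII oocytes, and the highest summed blood and immune markers (39.5 TPM). MI oocyte 15 of batch B was the shallowest, with 2709280 counts and 12505 genes. In MI oocytes 4, 8 and 9 the HTSeq counts were only 1.07 to 1.13 times the RSEM counts (median over genes), against 1.97 to 2.198 times in the other oocytes. In the median oocyte 1 gene held 24.2% of all counts (7.24% to 41.5%).

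Levels compared between genes are in TPM, since these correct for transcript length. Pttg1 was the most abundant regulator in batch A, with a mean of 1684 ± 532 TPM (SD, n = 6) in GV oocytes, where it ranked 43 of 29054 genes with counts. Bub1b followed with 436 ± 87.5 TPM, and neither range overlapped the next gene's. Below them came Mad2l1 at 148 TPM, Fbxo5 at 113 TPM, Bub3 at 102 TPM, Cdc20 at 82.8 TPM, Fbxo43 at 64.4 TPM, Fzr1 at 50.8 TPM, Bub1 at 47.95 TPM and Espl1 at 32.1 TPM. Each of these neighbours overlapped in range with the next, though Bub3 was above Cdc20 in 6 of 6 oocytes. In MII oocytes Pttg1 (2131 ± 543 TPM, n = 6), Bub1b (584 ± 60.0 TPM) and Mad2l1 (165 ± 43.2 TPM) led again, while Fzr1 (28.3 TPM) and Bub1 (25.8 TPM) came last with overlapping ranges. Cdc20 and Fbxo43 were the only lower neighbours there whose ranges did not meet, since the lowest Cdc20 level was 89.7 TPM and the highest Fbxo43 level 79.6 TPM.

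In batch B the order began with Bub1b, at 848 ± 250 TPM (SD, n = 10) in GV and 955 ± 229 TPM (n = 15) in MI oocytes. Pttg1 followed at 490 TPM and 353 TPM, and its range lay above that of Fbxo43, the next gene, in both groups. The order of all 10 genes by mean TPM was the same in GV and MI oocytes: Bub1b, Pttg1, Fbxo43, Mad2l1, Fbxo5, Bub3, Bub1, Cdc20, Fzr1 and Espl1. Apart from Pttg1 and Fbxo43, all neighbours in it overlapped in range, and Bub1b was above Pttg1 in 8 of 10 GV and 15 of 15 MI oocytes. The GV oocytes of both batches differed in most of these levels. For 7 of the 10 genes the GV ranges did not overlap between batches, against 17.7% of 12923 genes, and all 7 were higher in batch A (17.1% of all genes). The median ratio of batch A to batch B was 2.09 for the 10 genes and 1.602 over all genes. Pttg1 was 3.44 times, Fzr1 3.23 times and Cdc20 3.19 times as high by mean TPM. Bub1b pointed the other way, at 0.514 of its batch B level, with ranges that overlapped. Batch and these GV differences cannot be told apart.

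The question for batch A was which regulators differ between prophase-arrested GV oocytes and MII eggs. Counts were scaled by TMM, which takes most genes as unchanged, and edgeR's quasi-likelihood test was run on the 12929 genes that passed a filter on low counts, with Benjamini-Hochberg adjustment over all of them. A gene was called at an adjusted p under 0.05 with a fold change over 2. None of the regulators was called (0 of 10, all of which passed the filter), against 8.47% of all genes tested (2.15% higher and 6.32% lower). DESeq2 called 0 of 10 as well (background 8.7%), and 9 of 10 had an unadjusted p under 0.05 in edgeR, against 34.3% of all genes. By the adjusted p alone, 7 of 10 passed, against 20.6% of all genes. Under TMM, 4 of them were higher in MII oocytes (Cdc20, Pttg1, Espl1 and Bub1b, background 9.06%) and 3 were lower (Fzr1, Fbxo5 and Bub1, background 11.5%). Under spike-in scaling the first 4 lay near 0, at -0.17 to -0.04, with signs that turned when some single oocytes were left out. The median log2 fold change of the 10 genes was 0.42, against 0.01 over all genes tested. In TMM-scaled counts MII oocytes lay wholly beyond the GV oocytes for 2 of 10 genes, Bub1 and Bub1b, against 9.79% of all genes. By TPM the Bub1b groups overlapped. Bub1 lay below (background 5.71%) and Bub1b above (background 4.08%).

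Scaling by the spike-ins measures RNA per oocyte instead, if each oocyte received the same amount of spike-in, which was not tested. It moved the median log2 fold change of all genes from 0.01 to -0.72, and 3788 genes were then called lower and 131 higher. Of the regulators, 3 of 10 were called lower (Fzr1, Fbxo5 and Bub1, background 29.3%) and 0 of 10 higher (background 1.01%), in this test and also without each of the 12 oocytes in turn. The adjusted p alone gave the same 3 lower and 0 higher, against 42.2% and 1.11% of all genes. The other 7 lay between -0.35 and -0.04 on the log2 scale and were not called, and the median of all 10 was -0.30. The number of regulators at an adjusted p under 0.05 under TMM also depended on the oocytes. It was 3 to 6 when 1 oocyte was left out, where 15.1% to 19.4% of all genes passed: 3 without MII oocyte 4 (Fzr1, Bub1 and Bub1b), 4 without MII oocyte 6 (Fbxo5, Espl1, Bub1 and Bub1b) and 5 without MII oocyte 1 (Fzr1, Fbxo5, Pttg1, Bub1 and Bub1b). HTSeq counts gave 6, without Cdc20 (background 15.5%), and a model of all 37 oocytes gave 3 (Espl1, Bub1 and Bub1b; background 8.18%).

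**Figure D1:**
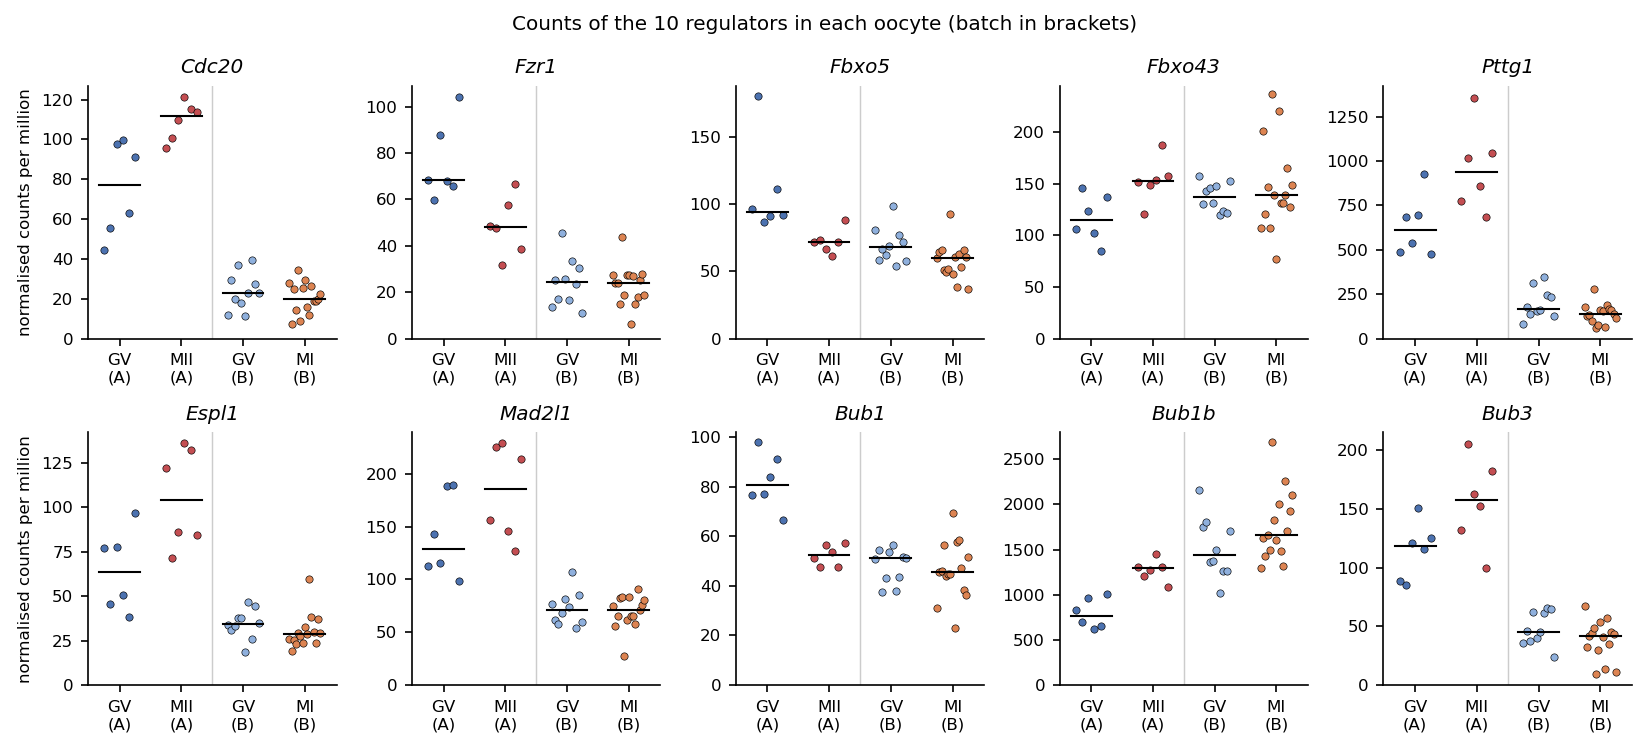
TMM-scaled counts (CPM) of each regulator (vertical axis, starting at 0) in every oocyte by stage and batch, with each point 1 oocyte and each line the group median. Bub1 is below and Bub1b above its GV range in all 6 MII oocytes of batch A on this scale, while under spike-in scaling the Bub1b change is -0.09 (log2), and all groups of batch B overlap.

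The question for batch B was whether the regulators already differ at MI, after nuclear envelope breakdown and before the polar body forms. Again 0 of 10 were called by edgeR's quasi-likelihood test, and 0 of 10 passed the adjusted p alone, against 0.121% and 0.145% of the 12419 genes tested. Of all genes 0.0886% were called higher and 0.0322% lower, and 0.0966% and 0.0483% passed the adjusted p alone in these directions. DESeq2 also called 0 of 10 (background 0.934%). Unadjusted p fell under 0.05 for 2 of 10 genes, Pttg1 and Fbxo5, against 11% of all genes. The median log2 fold change of the 10 genes was -0.13, against 0.02 over all genes, and no gene of the regulators or of all genes tested had groups without overlap. Without MI oocytes 4, 8 and 9, a choice made after seeing the data, 0 of 10 were called from RSEM counts and 0 of 10 from HTSeq counts. Leaving out each of the 25 oocytes in turn, the shallow MI oocyte 15 among them, also gave 0 of 10, while the 15 genes called among all genes became 82 without MI oocyte 9 and 0 without MI oocyte 7.

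Cdc20 (ENSMUSG00000006398.15; mm10 chromosome 4, 118432901 to 118437352, minus strand) encodes the activator that the spindle checkpoint inhibits. Its TMM-scaled counts at a common library size (CPM) in batch A ran from 44.6 through a median of 77.1 to 99.6 in GV oocytes, and from 95.9 through 112 to 121 in MII oocytes. The GV oocytes were spread widely and the MII oocytes sat close together at the top, with 5 of 6 above every GV oocyte and 1 within the GV range. The log2 fold change was 0.54 (95% interval 0.15 to 0.93, edgeR adjusted p = 0.0491), but -0.13 under spike-in scaling (-0.60 to 0.35, adjusted p = 0.644). The adjusted p was above 0.05 without GV oocyte 1, 2 or 5 or any 1 MII oocyte, with values from 0.0547 to 0.103, and was 0.0594 with HTSeq counts. Medians in batch B were 22.8 CPM in GV and 19.8 CPM in MI oocytes, the groups overlapped almost fully, and the log2 fold change was -0.22 (-0.69 to 0.25).

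Fzr1 (ENSMUSG00000020235.16; chromosome 10, 81366222 to 81378516, minus strand) encodes Cdh1, the activator that keeps cyclin B1 low in the GV arrest. It ran from 59.9 through 68.2 to 104 CPM in GV and from 31.6 through 48.1 to 66.5 CPM in MII oocytes of batch A. Every MII oocyte was below the GV median and 5 of 6 were below all GV oocytes. The log2 fold change was -0.64 (-1.04 to -0.25, edgeR adjusted p = 0.0238) and under spike-in scaling it was called at -1.35 (-1.94 to -0.77, adjusted p = 0.000651). Per 1000 spike-in counts the mean was 9.68 ± 3.15 counts in GV and 3.79 ± 1.29 counts in MII oocytes (SD, n = 6 each), and the ranges overlapped. Under TMM the adjusted p was 0.0506 without GV oocyte 3, 0.0546 without GV oocyte 6 and 0.0537 without MII oocyte 6. The batch B medians were 24.4 CPM in GV and 23.95 CPM in MI oocytes, and the log2 fold change of -0.07 (-0.53 to 0.40) had an interval on both sides of 0.

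Fbxo5 (ENSMUSG00000019773.7; chromosome 10, 5799160 to 5805600, minus strand) encodes Emi1, an APC/C inhibitor that is destroyed as cells enter division. It ran from 86.5 through 94.1 to 181 CPM in GV and from 61.5 through 71.6 to 87.9 CPM in MII oocytes of batch A. GV oocyte 2 stood far above its group, and 5 of 6 MII oocytes were below all GV oocytes. The log2 fold change was -0.60 (-0.98 to -0.23, edgeR adjusted p = 0.0242), and -0.40 without GV oocyte 2 (adjusted p = 0.0354), while without MII oocyte 4 the adjusted p was 0.0581. Under spike-in scaling it was called at -1.35 (-1.88 to -0.81, adjusted p = 0.000321). Per 1000 spike-in counts the GV oocytes had 6.41 to 21.1 counts and the MII oocytes 4.38 to 6.24, so these groups did not overlap. In batch B the range was 54.0 to 98.7 CPM in GV and 36.8 to 92.7 CPM in MI oocytes, with medians of 68.0 and 60.0. Of the 15 MI oocytes, 14 were below the GV median, and the log2 fold change was -0.27 (-0.54 to -0.00, unadjusted p = 0.0466, edgeR adjusted p = 0.444).

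Fbxo43 (ENSMUSG00000048230.6; chromosome 15, 36150060 to 36164884, minus strand) encodes Emi2, the inhibitor behind the metaphase II arrest. It ran from 85.2 through 115 to 146 CPM in GV and from 121 through 153 to 187 CPM in MII oocytes of batch A. Most MII oocytes (5 of 6) were above all GV oocytes, yet the gene did not pass the test. Its log2 fold change was 0.39 (0.08 to 0.71, edgeR adjusted p = 0.0721) and -0.34 under spike-in scaling (-0.83 to 0.16, adjusted p = 0.248). Without GV oocyte 2 it was 0.46 under TMM, with an adjusted p of 0.0391, and without GV oocyte 4 it was -0.48 under spike-in scaling, with an adjusted p of 0.0321. Medians in batch B were 137 CPM in GV and 139 CPM in MI oocytes, the MI oocytes were the more spread (77.6 to 237 CPM), and the log2 fold change was 0.09 (-0.19 to 0.38).

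Pttg1 (ENSMUSG00000020415.16; chromosome 11, 43420250 to 43426251, minus strand) encodes securin, the inhibitor of separase and a substrate of the APC/C. It ran from 478 through 612 to 925 CPM in GV and from 685 through 940 to 1358 CPM in MII oocytes of batch A. All 6 MII oocytes were above the GV median, but only 3 were above the highest GV oocyte. It had a log2 fold change of 0.59 (0.19 to 0.99, edgeR adjusted p = 0.0364), against -0.17 under spike-in scaling (-0.66 to 0.33, adjusted p = 0.563). Without GV oocyte 1, 3, 4 or 6 or MII oocyte 2, 3, 4 or 6 the adjusted p under TMM was between 0.0504 and 0.0851. In batch B it ran from 84.3 through 168 to 347 CPM in GV and from 57.3 through 140 to 279 CPM in MI oocytes. Here 12 of 15 MI oocytes were below the GV median, and the log2 fold change was -0.50 (-0.94 to -0.06, unadjusted p = 0.0279, edgeR adjusted p = 0.368).

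Espl1 (ENSMUSG00000058290.4; chromosome 15, 102296266 to 102324357, plus strand) encodes separase, the protease that opens cohesin at anaphase. It ran from 38.3 through 63.7 to 97.0 CPM in GV and from 71.6 through 104 to 136 CPM in MII oocytes of batch A. Both groups were widely spread, and 3 of 6 MII oocytes were above all GV oocytes. Under TMM the log2 fold change of 0.71 (0.23 to 1.20, edgeR adjusted p = 0.0373) was the highest of the 10 genes, yet under spike-in scaling it was -0.04 (-0.66 to 0.59, adjusted p = 0.921). Without GV oocyte 2, 4 or 5 or MII oocyte 1, 4 or 5 the adjusted p under TMM was 0.0694 to 0.0884. The medians in batch B were 34.4 CPM in GV and 28.8 CPM in MI oocytes, no MI oocyte was below all GV oocytes, and the log2 fold change was -0.19 (-0.52 to 0.15).

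Mad2l1 (ENSMUSG00000029910.14; chromosome 6, 66535390 to 66547220, plus strand) encodes Mad2, which binds Cdc20 when the checkpoint is on. It ran from 98.3 through 129 to 190 CPM in GV and from 127 through 185 to 229 CPM in MII oocytes of batch A. The groups overlapped over much of their ranges, and 5 of 6 MII oocytes were above the GV median. Its log2 fold change was 0.37 (-0.05 to 0.79, edgeR adjusted p = 0.197), and -0.35 under spike-in scaling (-0.86 to 0.15). It did not pass in any test that left out 1 oocyte. In batch B the medians were 70.9 CPM in GV and 70.6 CPM in MI oocytes, with a log2 fold change of -0.06 (-0.36 to 0.23).

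Bub1 (ENSMUSG00000027379.13; chromosome 2, 127801122 to 127831865, minus strand) encodes a kinetochore kinase of the checkpoint that also marks chromatin for shugoshin. It ran from 66.5 through 80.5 to 98.0 CPM in GV and from 47.6 through 52.3 to 57.2 CPM in MII oocytes of batch A. The groups did not overlap, and the MII oocytes were tightly grouped. Its log2 fold change was -0.65 (-0.92 to -0.38, edgeR adjusted p = 0.00247), with adjusted p under 0.05 in all 12 tests that left out 1 oocyte, and under spike-in scaling it was called at -1.40 (-1.90 to -0.90, adjusted p = 9.89e-05). Per 1000 spike-in counts it had 5.88 to 13.9 counts in GV and 3.70 to 4.40 in MII oocytes, again without overlap. Batch B had medians of 51.0 CPM in GV and 45.6 CPM in MI oocytes, and the log2 fold change was -0.05 (-0.34 to 0.24).

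Bub1b (ENSMUSG00000040084.9; chromosome 2, 118598211 to 118641591, plus strand) encodes BubR1, the Cdc20-binding checkpoint protein related to Bub1. It ran from 621 through 765 to 1011 CPM in GV and from 1082 through 1290 to 1451 CPM in MII oocytes of batch A. All MII oocytes were above all GV oocytes in these TMM-scaled counts. By TPM the groups overlapped, with the lowest MII oocyte at 493 TPM and the highest GV oocyte at 543 TPM. Its log2 fold change was 0.67 (0.37 to 0.97, edgeR adjusted p = 0.00399), with adjusted p under 0.05 in all 12 tests that left out 1 oocyte, but -0.09 under spike-in scaling (-0.59 to 0.42, adjusted p = 0.771). Per 1000 spike-in counts the mean was 104 ± 38.1 counts in GV and 97.9 ± 16.6 counts in MII oocytes (SD, n = 6 each), with overlap. Batch B had medians of 1434 CPM in GV and 1663 CPM in MI oocytes. There 12 of 15 MI oocytes were above the GV median, and the log2 fold change was 0.21 (-0.04 to 0.47, edgeR adjusted p = 0.552).

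Bub3 (ENSMUSG00000066979.6; chromosome 7, 131560222 to 131571895, plus strand) encodes the adaptor that brings Bub1 and BubR1 to kinetochores. It ran from 85.3 through 119 to 151 CPM in GV and from 99.97 through 158 to 205 CPM in MII oocytes of batch A. Of the MII oocytes 4 of 6 were above all GV oocytes, and 1 was below the GV median. It had a log2 fold change of 0.44 (0.06 to 0.82, edgeR adjusted p = 0.0910), or 0.55 with an adjusted p of 0.0342 without MII oocyte 5, and -0.25 under spike-in scaling (-0.74 to 0.23). The batch B medians were 45.3 CPM in GV and 42.2 CPM in MI oocytes, and the MI oocytes reached down to 9.06 CPM. The log2 fold change there was -0.32 (-0.81 to 0.17).

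**Figure D2:**
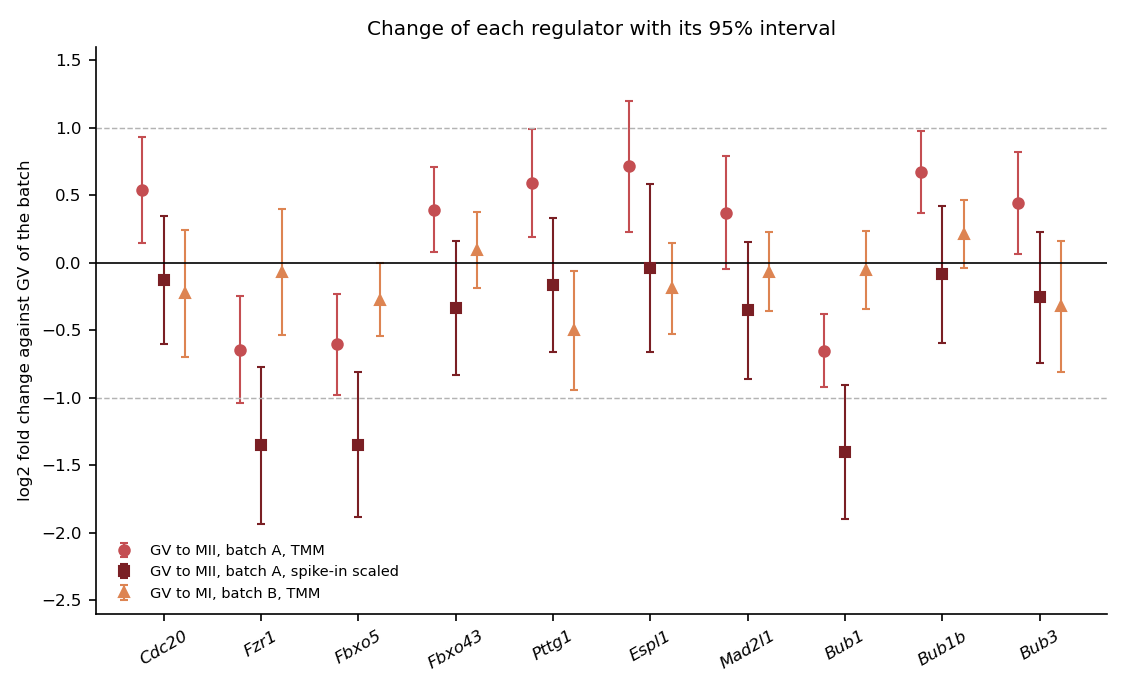
Log2 fold change against the GV oocytes of the same batch (vertical axis) for each regulator (horizontal axis), as point and 95% interval, for MII in batch A under TMM and under spike-in scaling and for MI in batch B under TMM, with dashed lines at the 2-fold change a call needs. The spike-in values of Fzr1 (-1.35), Fbxo5 (-1.35) and Bub1 (-1.40) lie past the lower line, and the 7 genes that are positive under TMM in batch A are negative under spike-in scaling.

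The spread between oocytes is given as the coefficient of variation of CPM. In GV oocytes of batch A it ran from 13.8% for Bub1 to 35.7% for Espl1, with 32.6% for Fbxo5 and 31.5% for Cdc20. The median over the 7360 genes with a mean of at least 10 CPM was 23.6% in that group. In MII oocytes Cdc20 varied by 8.61%, Bub1 by 8.07% and Bub1b by 9.64%, against a median of 20.8% over 7192 genes. In both of these groups 5 of 10 regulators lay above the median of all genes, among MII oocytes Espl1 (26.4%), Fzr1 (26.01%), Pttg1 (25.1%), Mad2l1 (24.6%) and Bub3 (23.8%). In GV oocytes of batch B the spread ran from 10.1% for Fbxo43 to 43.0% for Fzr1, against a median of 27.8% over 6099 genes. In MI oocytes it ran from 21.7% for Bub1b to 44.1% for Bub3, against a median of 31.7% over 6129 genes.

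A ratio of 2 regulators within an oocyte needs no scaling between oocytes, so 5 such ratios were tested in each batch, with p-values adjusted over the 10 tests. Ratios of other gene pairs were not tested, so how often any pair separates the stages is not known. Of single genes tested in batch A, 9.79% had groups without overlap in TMM-scaled counts, which is a different measure from a ratio of TPM. The ratios that separated the stages each set a gene with a positive TMM change over a gene with a negative change. They thus partly restate those changes. For the activators, the TPM ratio of Cdc20 to Fzr1 ran from 1.11 through 1.59 to 2.36 in GV and from 2.80 through 3.39 to 5.40 in MII oocytes of batch A. All 6 MII oocytes were above all 6 GV oocytes. The mean log2 ratio rose by 1.23 (two-sided exact permutation p = 0.00216, adjusted p = 0.00722), and 0.00216 is the smallest p that the 924 assignments of 12 oocytes can give. For the inhibitors, the ratio of Fbxo43 to Fbxo5 ran from 0.419 through 0.615 to 0.735 in GV and from 0.935 through 1.19 to 1.37 in MII oocytes. Emi2 mRNA was thus the rarer of the pair in every GV oocyte of batch A and the commoner in 4 of 6 MII oocytes, while in batch B it was the commoner in 6 of 10 GV oocytes. Its mean log2 ratio rose by 0.97 (exact p = 0.00216, adjusted p = 0.00722). For the paralogs, the ratio of Bub1b to Bub1 ran from 6.70 through 8.45 to 14.2 in GV and from 17.2 through 23.9 to 25.2 in MII oocytes, again with no overlap, and its mean log2 ratio rose by 1.32 (exact p = 0.00216, adjusted p = 0.00722).

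The ratio of securin to separase mRNA, Pttg1 to Espl1, had a geometric mean of 51.6 in GV and 49.2 in MII oocytes of batch A, and the groups overlapped (difference -0.07 in log2, exact permutation p = 0.861). For Mad2l1 to Cdc20 the geometric means were 1.79 and 1.55 (difference -0.21 in log2, exact permutation p = 0.481). In batch B none of the 5 ratios passed a two-sided permutation test with 100000 resamples after adjustment. Fbxo43 to Fbxo5 came nearest, with geometric means of 1.04 in GV and 1.32 in MI oocytes, a log2 difference of 0.35 (permutation p = 0.0353, adjusted p = 0.0882). Its adjusted p was 0.0363 without MI oocyte 7 and 0.0396 without MI oocyte 8. For Bub1b to Bub1 the geometric means were 30.2 and 37.6, a log2 difference of 0.31 (permutation p = 0.0949, adjusted p = 0.190). Whether a ratio moved differently in the batches was not tested.

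**Figure D3:**
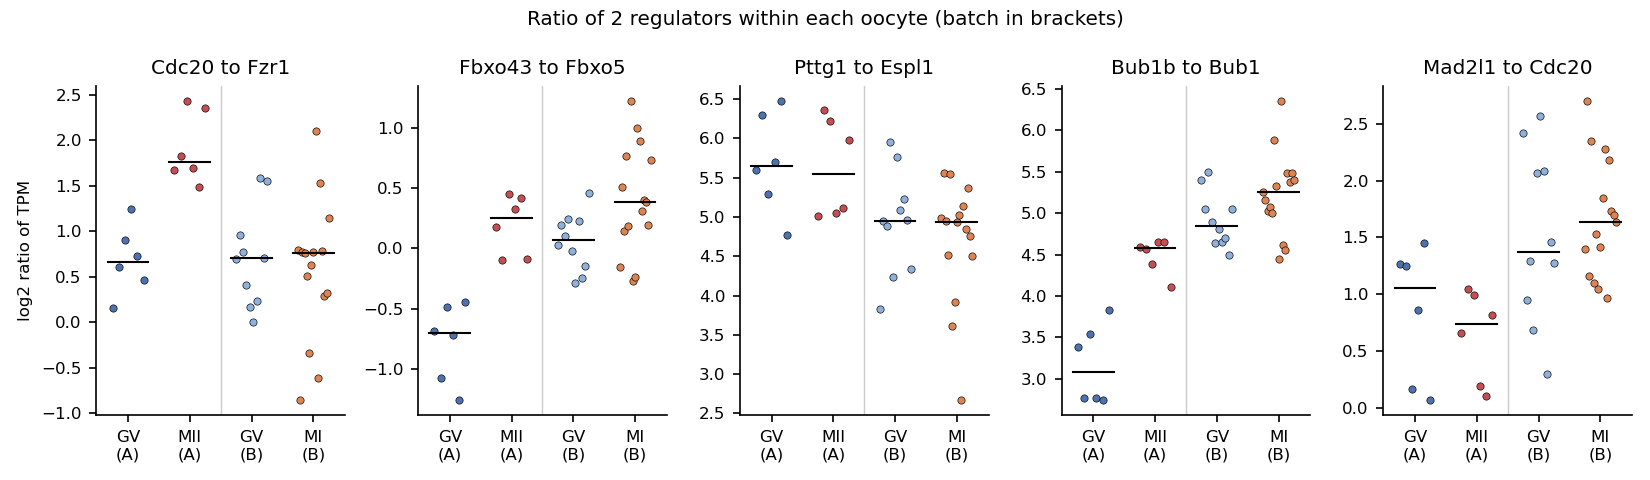
Log2 ratio of the TPM of 2 regulators within each oocyte (vertical axis) by stage and batch, with each point 1 oocyte and each line the group median. In batch A the MII oocytes lie above all GV oocytes for Cdc20 to Fzr1, Fbxo43 to Fbxo5 and Bub1b to Bub1, and the groups overlap for Pttg1 to Espl1 (difference -0.07) and Mad2l1 to Cdc20 (difference -0.21).

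The change from GV to MII in batch A was then set against the change from GV to MI in batch B, in 1 model of all 37 oocytes that takes each batch's own GV oocytes as its base. This difference was called for 1 of 10 regulators, against 4.03% of the 15083 genes tested, and passed the adjusted p alone for 2 of 10, against 5.46%. The unadjusted p was under 0.05 for 7 of 10, against 17.7%. Securin was the one called: for Pttg1 the MII change exceeded the MI change by 1.17 (0.46 to 1.88, edgeR adjusted p = 0.0376). For Espl1 the difference was 0.96 (0.37 to 1.55, edgeR adjusted p = 0.0426). With HTSeq counts the values were 1.12 (adjusted p = 0.0729) and 0.93 (adjusted p = 0.0775), and without MII oocyte 1 they were 1.26 (adjusted p = 0.0396) and 0.95 (adjusted p = 0.0722). With no filter on low counts they were 1.10 (edgeR adjusted p = 0.00788) and 0.90 (adjusted p = 0.0593). The other 8 genes lay between -0.53 and 0.84 and did not pass the adjusted p, though for 5 of them (Cdc20, Mad2l1, Bub1, Bub1b and Bub3) the 95% interval excluded 0. These differences were computed under TMM, and batch B has no spike-in values to set beside them.

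The other genes of the pathway were taken from lists, none of whose 60 different genes tested was called under TMM in batch A by edgeR, against 8.47% of all genes. A gene on 2 lists is counted once in the 60. Over all genes 20.6% passed the adjusted p alone (9.06% higher, 11.5% lower). Of 14 APC/C subunits, 2 passed the adjusted p alone, Anapc1 (0.48, adjusted p = 0.0229) and Anapc15 (-0.53, adjusted p = 0.0106), and the list median was 0.05. Of 7 E2 and ubiquitin chain enzymes tested out of 8, the ones that passed were Ube2d2a (0.53, adjusted p = 0.0209) and the deubiquitinase Usp37 (0.51, adjusted p = 0.0221), with a list median of 0.51. The signs of Anapc1, Ube2d2a and Usp37 turned under spike-in scaling, to -0.28, -0.21 and -0.25. Of 12 checkpoint partners, Tpr was higher (0.42, adjusted p = 0.0487, but -0.32 with spike-ins) and the kinetochore genes Zwint (-0.89, adjusted p = 0.00176) and Zw10 (-0.46, adjusted p = 0.0240) were lower, with a list median of 0.06. Except for Ube2d2a these genes were named after their values were seen.

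Of 17 APC/C substrates, 4 passed the adjusted p alone, against the same 20.6% of all genes, and were also named after their values were seen. Ccna2 (0.52, adjusted p = 0.00677) and Sgo2a (0.60, adjusted p = 0.00952) were higher under TMM, with -0.22 and -0.15 under spike-in scaling, and Kif22 (-0.65, adjusted p = 0.00923) and Cdc6 (-0.73, adjusted p = 0.00792) were lower. Cyclin B1, the main substrate in meiosis, came just short: Ccnb1 was at 0.61 (adjusted p = 0.0509) under TMM and at -0.10 with spike-ins. Of 11 genes of Emi1 and Emi2 turnover tested out of 13, Ppp3r1 passed (0.42, adjusted p = 0.0398, but -0.34 with spike-ins). The list medians were 0.23 and 0.21, against 0.01 over all genes. Under spike-in scaling 7 of the 60 list genes tested were called lower, against 29.3% of all genes, and 0 higher, against 1.01%. At the adjusted p alone 25 of 60 were lower, against 42.2% of all genes. Those called were Anapc15 (-1.25), Anapc16 (-1.02), Zwint (-1.62), Zw10 (-1.18), Kif22 (-1.34), Cdc6 (-1.45) and Skp1a (-1.30).

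The most abundant genes of each list by TPM over GV oocytes had the following TMM values in batch A. Among subunits they were Anapc16 (-0.28, edgeR adjusted p = 0.189) and Cdc27 (0.12, adjusted p = 0.552), and among enzymes Ube2d3 (0.14, adjusted p = 0.627) and Ube2d2a. Among checkpoint partners they were Ttk, the Mps1 kinase (-0.10, adjusted p = 0.733, but -0.82 and 0.00856 with spike-ins), and Spdl1 (0.32, adjusted p = 0.115). Among substrates they were Ccnb1 and Cks2 (0.27, adjusted p = 0.372), and in the turnover list the SCF ligase genes Skp1a (-0.55, adjusted p = 0.0746) and Cul1 (0.40, adjusted p = 0.0642). Under spike-in scaling Cdc27 (-0.62), Ube2d3 (-0.60), Spdl1 (-0.37), Cks2 (-0.46) and Cul1 (-0.34) had the opposite sign. In batch B none of the listed genes was called by edgeR or passed the adjusted p alone, against 0.121% and 0.145% of all genes, and the smallest adjusted p among these abundant genes was 0.146, for Cks2 (-0.69). In the test of the MII change against the MI change, the list genes called were Kif22 (-1.13), Cdc6 (-1.10) and Cks2 (1.04), against 4.03% of all genes. Ccnb1 (0.85), Ube2d2a (0.73) and Zwint (-0.83) passed the adjusted p without a 2-fold difference.

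The levels of some regulators varied together from oocyte to oocyte. The values are Pearson correlations within each batch, given as a description. They use log2 counts relative to each oocyte's total counts, without TMM, and so not the TMM-scaled CPM used above. The oocytes share depth and, within a batch, stage differences. Of the 45 pairs of regulators, the highest value on this measure in batch A was 0.914, for Pttg1 and Mad2l1 (0.587 in batch B). The lowest was -0.816, for Bub1 and Bub1b (0.395 in batch B). In batch B the highest was 0.834, for Pttg1 and Bub3 (0.645 in batch A), and the lowest was -0.349, for Cdc20 and Fbxo43 (0.131 in batch A). Over all pairs of 6703 genes (6702 in batch B) the middle 95% of values ran from -0.735 to 0.842 in batch A, with a median of 0.0782, and from -0.369 to 0.679 in batch B, with a median of 0.215.

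Many regulators were read mainly from 1 transcript. The lowest mean share of its gene's expected counts in any group was 94.7% for Fzr1-205, 98.0% for Cdc20-201, 98.5% for Fbxo43-201, 99.2% for Bub1b-201, 99.5% for Fbxo5-201 and 99.6% for Bub1-201. Bub3-201 held 97.1% in GV and in MII oocytes of batch A and 93.1% in GV oocytes of batch B. In MI oocytes it held 85.8% ± 24.8 (SD, n = 15), from 0% to 99.4%, and Bub3-204, annotated for nonsense-mediated decay, held 0% to 88.4%. Of the regulators' transcripts, 0 of 24 tested in batch A and 0 of 19 in batch B were called by edgeR, against 5.57% of 22461 transcripts in batch A (1.35% higher, 4.23% lower) and 0% of 22717 in batch B. DESeq2 also called 0 of the regulators' transcripts. Over all transcripts it called 501 higher and 1298 lower of 22461 in batch A, and 103 of 22717 in batch B. In edgeR 11 of 24 in batch A and 3 of 19 in batch B had an unadjusted p under 0.05, against 24.2% and 7.11% of all transcripts. By the adjusted p alone 5 of 24 passed in batch A, against 9.3% of all (3.49% higher, 5.81% lower): Fzr1-205 (-0.69, adjusted p = 0.0409), Fbxo5-201 (-0.62, adjusted p = 0.0481), Bub1-201 (-0.67, adjusted p = 0.00422), Pttg1-206 (0.73, adjusted p = 0.0395) and Bub1b-201 (0.66, adjusted p = 0.0123). Without MII oocyte 1 only Bub1-201 and Bub1b-201 did. Over all transcripts 531 of 23349 then passed as higher and 980 as lower, against 785 and 1304 of 22461 with this oocyte. Spike-in scaling, which turned the sign of Pttg1 and Bub1b as genes, was not run for transcripts.

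Pttg1 was read mainly from Pttg1-202 (741 bases, 6 exons, 79 bases of 3′ UTR), with 89.8% of its counts in GV and 89.2% in MII oocytes of batch A and 90.2% in GV and 86.3% in MI oocytes of batch B. Pttg1-206 (948 bases, 5 exons), named for its adjusted p after the values were seen, held 7.85%, 8.90%, 6.57% and 7.76% in the same order. Espl1-201 (6658 bases, 31 exons) held 89.7% and 90.2% in batch A. In batch B its mean share was 88.8% ± 6.58 in GV (SD, n = 10) and 76.9% ± 25.96 in MI oocytes (SD, n = 15), where Espl1-202, a transcript 23 bases shorter, held 0% to 96.6%. In the test of transcript usage (edgeR's diffSpliceDGE), which asks whether a transcript's share of its gene moved, 0 of 6 regulators with more than 1 transcript tested passed in either batch, against 2.41% of genes in batch A and 0.0723% in batch B. The smallest unadjusted p of the 6 was 0.399 in batch A and 0.105 in batch B, so 0 were under 0.05, against 8.05% and 2.67% of all genes. For Bub3 in batch B the test held only Bub3-201 and Bub3-207, so the varying share of Bub3-204 was not tested. Of single transcripts 0 of the regulators' passed, against 0.942% in batch A and 0.0242% in batch B.

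Mad2l1 was divided differently. Mad2l1-203, annotated as a retained intron transcript without a coding region (1680 bases), held 69.2% ± 4.79 of its expected counts in GV and 68.1% ± 1.22 in MII oocytes of batch A (SD, n = 6 each), and 60.1% ± 5.68 in GV (n = 10) and 58.7% ± 5.35 in MI oocytes (n = 15). The coding transcripts held less. Mad2l1-201 (1725 bases, 1048 bases of 3′ UTR) had 17.1% to 23.4%, and Mad2l1-202 (7557 bases, 6802 bases of 3′ UTR) 12.5% to 17.7%, as group means. Of the bases of Mad2l1-203, 1250 lie in exons of Mad2l1-201, 1322 in exons of Mad2l1-202 and 358 in neither. Reads from the shared bases can fit more than 1 transcript, so the split is an estimate, and the share of such reads was not measured. For Mad2l1-201 the log2 fold change in batch A was 0.50 (-0.06 to 1.05), and for Mad2l1-203 it was 0.35 (-0.06 to 0.75).

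**Figure D4:**
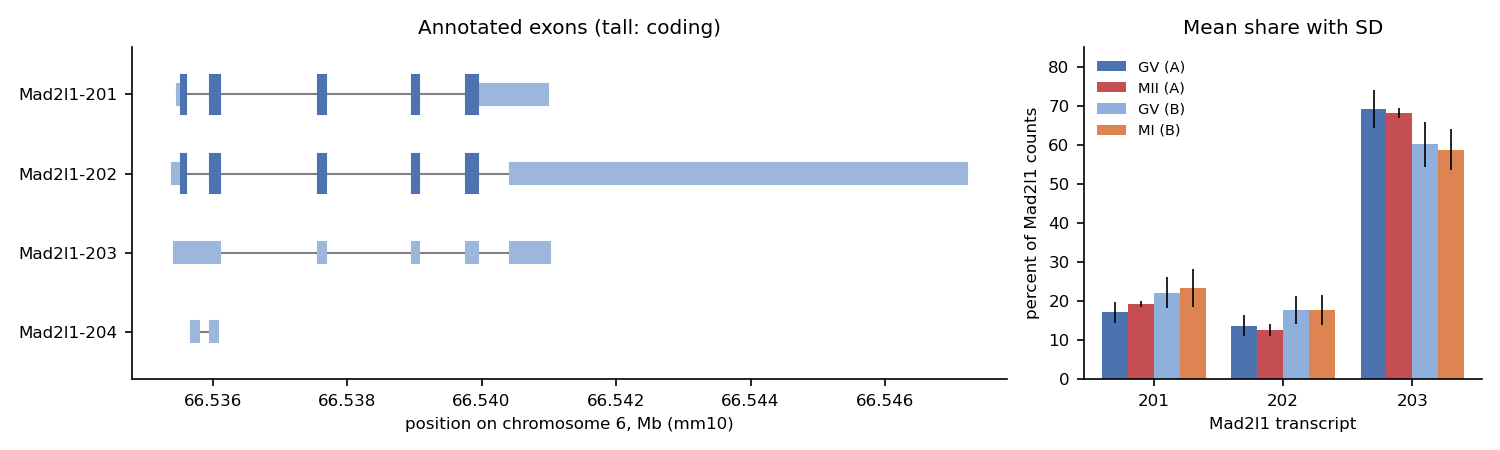
Left, the annotated exons of the Mad2l1 transcripts on mm10 chromosome 6 (position in Mb, coding parts drawn tall); right, the mean share of Mad2l1 expected counts held by 3 of them (percent, bars from 0 with SD) in each stage and batch. The retained intron transcript Mad2l1-203 holds the largest share in all 4 groups, from 58.7% to 69.2%.

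Reads could be shared with other genes for only a few regulators. A search of each gene's coding transcript with the most counts against all annotated transcripts, at 95% identity over at least 100 bases, found no other gene for 8 of the 10. Mad2l1 matched the pseudogene Gm42430 over 454 bases, whose counts were 0.0319% of those of Mad2l1. Fbxo43 matched 12 genes, each over 134 to 150 of its 4035 bases, and the highest of these, Mvp, had 33.7% of its counts. On the genome, Cdc20 shares 53 exon bases with Elovl1 on the opposite strand (a mean of 331 counts, against 514 for Cdc20), and Fzr1 shares 4 bases with Mfsd12 (1.79 counts against 425).

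The 3′ end of each gene's coding transcript with the most counts was read for the polyadenylation hexamer and for the U-rich element that the protein CPEB binds when maternal mRNAs are polyadenylated in maturing oocytes. AATAAA or ATTAAA was found in the last 40 bases of 9 of 10 regulators (not in Fzr1), against 75% of 11162 genes. TTTTAT or TTTTAAT was found in the last 100 bases of 4 of 10, Cdc20, Fbxo5, Mad2l1 and Bub1b, against 19.2% of these genes; TTTTAAT can overlap AATAAA by its last bases. The windows of those 4, and of Bub1 as the paralog of Bub1b without a match, are printed from GENCODE M21 transcripts (mm10), 5′ to 3′ as DNA, with the matches in capitals.
Cdc20-201: TTTATTTTATtttttctAATAAAgttcgta
Fbxo5-201: ttttTTTTATatctgtgaatacctgttttc
Mad2l1-201: tgtAATAAAgaactcttaTTTTAATgtttt
Bub1b-201: tgtaTTTTATAATAAAatagtttttgttac
Bub1-201: taaaaaaAATAAAgcccatatgatataccc
For Mad2l1 the end read is that of Mad2l1-201, and the end of the more counted Mad2l1-203 was not read. In Cdc20 the first of 2 U-rich matches begins 1 base before the window. In Bub1b the U-rich match nearest the end and the hexamer stand side by side, with the other U-rich match outside the window, and in Fbxo5 the hexamer lies nearer the end, 17 bases from it, outside the window. A match is a description of the annotated end; binding of CPEB and tail length are not analysed here.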

How the data were processed

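Reads were trimmed by the authors (Trim Galore 0.6.4). The deposited expected counts, for genes and for transcripts, were estimated by the authors with RSEM 1.3.1 on mm10 with GENCODE VM20 and the ERCC sequences. The authors made the deposited HTSeq counts per gene with STAR 2.7.6a and HTSeq 0.12.4; strandedness was not stated. Neither table was normalised or holds molecular identifiers. Smart-seq2 primes from poly(A), so RNA with a very short tail is read less well; tail length was not measured.

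Expected counts were rounded to whole numbers and tests and library sizes did not include the 92 spike-ins. edgeR 4.0.16 (R 4.3.3, limma 3.58.1) was used with TMM, filterByExpr and the quasi-likelihood test, and diffSpliceDGE for transcript usage. A feature was called at a fold change over 2 and an adjusted p under 0.05 (Benjamini-Hochberg, over all features tested). TPM were computed from transcript expected counts and annotated lengths (46 transcripts without a length were left out), and ratios of TPM took a pseudocount of 0.1. Permutation tests, sequence searches (blastn of BLAST+ 2.17.0) and plots were run with matplotlib 3.10.9, scipy 1.17.1, numpy 2.4.6 and pandas 2.3.3 under Python 3.11.15. The tests were tried on simulated counts before use.

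Named were all 10 regulators, list genes called in a batch, the 2 genes of highest mean TPM over GV oocytes in each list, and transcripts called or holding at least 10% of their gene's counts. Other transcripts and list genes in the text were named after their values were seen. Regulators and lists were chosen with earlier results of these data known. Alternatives were no filter, DESeq2 1.42.0, RLE, HTSeq counts, the adjusted p alone, robust empirical Bayes, all 37 oocytes, spike-in size factors, the replicate number as a block and leaving out oocytes. Counts of regulators by the adjusted p alone under each setting, RSEM counts without MI oocytes 4, 8 and 9, oocytes 1 to 10 alone and spike-in scaling without each oocyte were added after seeing the data.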

Additional observations from a re-analysis of the deposited data

Results flagged for a closer look

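In batch A, GV oocyte 2 stood apart from the other GV oocytes for Fbxo5. Its level was 180.6 CPM (TMM-scaled counts), the next highest oocyte had 111, and the group ran from 86.5 with a median of 94.1. It was the only value of this kind among 45 sets examined, each the values of 1 regulator or 1 ratio in a group of oocytes. Chance alone gives such a value in about 1 in 20 sets. The group of 15 MI oocytes was not examined. The log2 fold change of Fbxo5 from GV to MII was -0.60 with this oocyte and -0.40 without it.

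The change from GV to MII in batch A and the change from GV to MI in batch B differed for 2 regulators by the test of the difference itself. For Pttg1 the log2 difference was 1.17, from a change of 0.66 in batch A and -0.51 in batch B in the joint model. For Espl1 it was 0.96, from 0.76 and -0.20. Both were computed under TMM, neither passed the adjusted p of 0.05 with HTSeq counts, and MI and MII oocytes were never sequenced in 1 batch. Espl1 also did not pass with no filter or without MII oocyte 1.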

How the results depend on the processing

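Of the 1170 alternative values of single regulators, transcripts and ratios, 1121 kept their direction and stayed called or not called, but a call needs a fold change over 2, which few had to lose. At the adjusted p alone, in batch A, Cdc20 passed in 3, Pttg1 in 4 and Espl1 in 6 of the 12 tests that left out 1 oocyte. In every case the cause of a change was not tested.

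In batch A (1095 genes called, 0 of 10 regulators called, 7 at the adjusted p alone), 1859 genes were called with no filter, 2662 with the adjusted p alone (7 regulators), 653 in the model of all 37 oocytes (3 regulators at the adjusted p) and 3919 with spike-in size factors (3 regulators). Leaving out 1 oocyte gave 3 to 6 regulators at the adjusted p. With spike-in size factors the sign turned for Cdc20 (-0.13), Fbxo43 (-0.34), Pttg1 (-0.17), Espl1 (-0.036), Mad2l1 (-0.35), Bub1b (-0.086) and Bub3 (-0.25). When 1 oocyte was left out under that scaling, the ranges spanned 0 for Cdc20 (-0.21 to 0.014), Pttg1 (-0.28 to 0.060), Espl1 (-0.19 to 0.17) and Bub1b (-0.24 to 0.047).

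Of transcripts in batch A (1252 called, 5 of the regulators' at the adjusted p), 2089 passed the adjusted p alone (5 of the regulators'). With no filter 2 of the regulators' passed it, and 507 higher and 954 lower of all 92765. Without MII oocyte 1 it was passed by 2 of the regulators', and by 531 higher and 980 lower of all 23349, and Pttg1-203 was 0.077. In batch B (15 genes called), 40 were called with no filter, 116 by DESeq2, 0 with HTSeq counts, 107 in the model of all 37 oocytes, 0 with HTSeq and 36 with RSEM counts without MI oocytes 4, 8 and 9, and 0 to 82 without 1 oocyte. There Fzr1 was 0.057 (HTSeq) and 0.041 (RSEM) without those 3 oocytes and -0.16 to 0.079 without 1 oocyte, and Mad2l1 was -0.11 to 0.011. Of transcripts in batch B (0 called), 2 were called with no filter and 103 by DESeq2. The difference of the changes (608 genes, 1 regulator) gave 1500 genes with no filter, 247 genes and 0 regulators with HTSeq counts, 2 regulators with the adjusted p alone, and 357 to 652 genes without MII oocyte 1 or MI oocyte 15. Transcript usage in batch B (4 genes) gave 34 genes for transcripts with a mean of at least 10 counts. The log2 ratio of Pttg1 to Espl1 in batch A was -0.25 to 0.091 without 1 oocyte.

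The oocyte numbers do not pair the stages: after centring, oocytes of the same number had a correlation over 0.1 in 1 of 6 pairs of batch A and in 1 of 10 of batch B. With the number as a block, batch A gave 886 genes and 532 transcripts called. At the adjusted p alone 3 regulators passed (Cdc20, Bub1 and Bub1b), against 12.3% of all genes. Of the regulators' transcripts 0 passed it, against 220 higher and 407 lower of all 22461. In batch B the block fit used oocytes 1 to 10 of each group and gave 0 genes, against 17 for these oocytes without the block, with Fzr1 at 0.013, Fzr1-205 at 0.032 and Mad2l1-201 at -0.034.

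Limits: batch B has too few spike-in counts to scale by, so changes there are relative to the other genes and not amounts per oocyte. With 6 oocytes a group in batch A the exact permutation test cannot give a p under 0.00216. Isoform shares are estimates where transcripts overlap. Proteins, phosphorylation and translation are not analysed here.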
